A study of Homo sapiens with 3 samples.

Results

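The microRNA genes hsa-mir-183, hsa-mir-96 and hsa-mir-182 lie side by side on chromosome 7 and are made as hairpins of a shared transcript, the miR-183 cluster. All rows of the deposited count table that belong to these 3 hairpins were taken, which gave 6 mature arms of 2590 mature miRNAs listed and 3 of 1878 hairpins. Short RNAs were sequenced and counted in 3 libraries (small RNA-seq), all from Flp-In T-REx 293, which descends from HEK293, a line of human embryonic kidney cells. Each line had been transduced with a lentiviral vector, kept under 1 mg/mL Geneticin for 6 days of selection, and doxycycline (1 ug/mL, 7 days) was given to all lines, the control included. The control carried the empty vector, the miR-1 line a synthetic miR-1 hairpin and the miR-122 line a synthetic miR-122 hairpin, which the vectors carried inside the intron of a GFP reporter driven by a CMV promoter that responds to doxycycline. Whether a line was a clone or a pool of transduced cells is not given in the sources used here. With 1 library a group, no difference between lines has a replicate check, and every interval below covers counting error only.

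MicroRNA hairpins are cut out of the primary transcript by Drosha and trimmed by Dicer to a short duplex, of which usually 1 strand, the guide, is kept in Argonaute and the other is discarded. The guide recognises its targets mainly through the seed, bases 2 to 8 from its 5′ end. The 3 miRNAs of this cluster are best known from sensory cells: they are abundant in photoreceptors of the retina and in hair cells of the inner ear, where changes in the seed of miR-96 cause hearing loss. In tumour cells the transcription factor FOXO1 is a known target of these miRNAs. The question addressed here was how unequal the output of 3 hairpins cut from a common transcript was, and whether it differed between the lines.

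The guide strands are shown first because the comparison of seeds and whole strands rests on them. The sequences are from RefSeq (GRCh38.p14), are written 5′ to 3′, and carry the seed in capitals.
hsa-miR-183-5p: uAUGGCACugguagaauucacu
hsa-miR-96-5p: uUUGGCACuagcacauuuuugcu
hsa-miR-182-5p: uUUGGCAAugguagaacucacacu
With positions counted from 1 at the 5′ end, miR-96-5p and miR-182-5p differed in the seed by C8A, and miR-96-5p and miR-183-5p by U2A. Both positions separated miR-182-5p from miR-183-5p (U2A and A8C), so that this pair shared 5 of 7 seed bases whereas miR-96-5p shared 6 of 7 with either. Over the whole strand the order was the opposite. Without gaps, miR-182-5p and miR-183-5p were identical at 18 of 22 positions, miR-96-5p and miR-183-5p at 13 of 22, and miR-96-5p and miR-182-5p at 12 of 23. The 3 guides were 22, 23 and 24 nt long with a GC content of 39.1% to 41.7%, and all began with U.

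The opposite arms are shown because they were counted so much less often than the guides.
hsa-miR-183-3p: gUGAAUUAccgaagggccauaa
hsa-miR-96-3p: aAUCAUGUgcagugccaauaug
hsa-miR-182-3p: uGGUUCUAgacuugccaacua
In the hairpins of hsa-mir-96 and hsa-mir-182 below, capitals mark the mature arms, which had 20 bases between them in both.
hsa-mir-96: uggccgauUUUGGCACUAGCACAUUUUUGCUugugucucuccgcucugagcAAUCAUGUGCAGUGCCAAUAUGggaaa
hsa-mir-182: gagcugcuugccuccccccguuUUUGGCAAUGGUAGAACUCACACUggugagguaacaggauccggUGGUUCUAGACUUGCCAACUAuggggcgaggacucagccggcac

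The genes are on the minus strand of chromosome 7 (GRCh37). MIR183 lies at chr7:129414745-129414854, MIR96 at chr7:129414532-129414609 and MIR182 at chr7:129410223-129410332. In the direction of transcription hsa-mir-183 comes first, followed after 135 bases by hsa-mir-96 and after a further 4199 bases by hsa-mir-182. All 3 are intronic to ENSG00000286380, a long non-coding RNA gene on the same strand at chr7:129402900-129420060, for which 1 annotated transcript spans the hairpins.

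Depth was 1636834 miRNA counts for the control, 2892684 for miR-1 and 2577292 for miR-122. The induced miRNAs matched the labels: miR-1-3p of the synthetic hairpin took 38.1% of counts in miR-1 cells and 0.0101% in control cells, and miR-122-5p took 24.4% in miR-122 cells and 0.000611% in control cells. Counts of endogenous miRNAs were therefore compared after TMM scaling on endogenous miRNAs alone, and levels are given as scaled CPM, that is, counts per 1000000 endogenous counts on this scale, in which 1 count was worth 0.531 to 0.593. Endogenous here means not listed at a synthetic hairpin. This set still holds miR-3591-5p, with a log2 ratio of 10.0 in miR-122 cells against control. Whether its reads came from the induced hairpin was not tested. Reads were counted per mature strand of similar length, so no correction for length was made. Adapter ligation favours some miRNA sequences over others and was not calibrated, so ratios between different miRNAs are ratios of reads. No miRNA marker of HEK293 was among the lists used, so the cell type itself was not checked.

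In HEK293 cells the cluster was expressed well but unevenly. It had 26328 counts in control cells, 30739 in miR-1 cells and 37482 in miR-122 cells. This was 1.61% of endogenous counts in the control (95% Wilson interval 1.59% to 1.63%), 1.72% in miR-1 cells (1.70% to 1.73%) and 1.92% in miR-122 cells (1.91% to 1.94%). In each library hsa-mir-182 gave the most counts, hsa-mir-183 slightly fewer, and hsa-mir-96, the hairpin between them, far fewer.

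miR-182-5p, the guide of hsa-mir-182, had 13145 counts in the control, 15379 in miR-1 cells and 17730 in miR-122 cells. In scaled CPM its level was 7792, 8547 and 9414. It ranked 28, 27 and 22 among the 514 endogenous miRNAs whose counts averaged at least 10. Its neighbours in the control order, miR-30c-5p with 13203 counts above and let-7g-5p with 13010 below, were both inside its 95% Poisson interval (12921 to 13372 counts).

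miR-183-5p had 11203, 13359 and 16502 counts in control, miR-1 and miR-122 cells, respectively, or a level of 6641, 7424 and 8762 scaled CPM. It ranked 32, 29 and 25. In the control order miR-148b-3p, with 11383 counts, was within the interval of miR-183-5p (10996 to 11412), while miR-1307-3p below it, with 10425, was not.

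miR-96-5p had 1899, 1925 and 3155 counts, or a level of 1126, 1070 and 1675 scaled CPM, and ranked 80, 79 and 68. Its level was thus nearly equal in the control and miR-1 libraries and higher in miR-122 cells. Of its neighbours in the control, miR-339-5p with 1974 counts was within its interval (1815 to 1986) and miR-197-3p with 1768 was below it.

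The opposite arms were 2 to 3 orders of magnitude lower. miR-183-3p had 33, 44 and 60 counts in control, miR-1 and miR-122 cells, respectively. miR-182-3p had 46, 27 and 35, so that its highest count was in the library where the guide of the same hairpin had its lowest. miR-96-3p had 2, 5 and 0 counts, and the 0 among the 3155 counts of its hairpin, read as at most 3 counts, allowed a share of up to 0.0951%. Of the 6 arms, 5 had a mean count of at least 10, and miR-96-3p was not carried into comparisons across miRNAs.

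**Figure D1:**
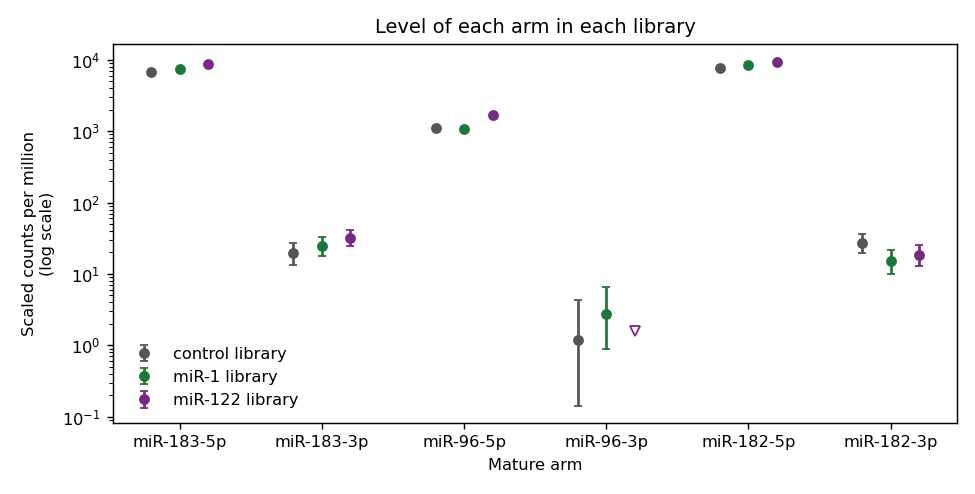
Scaled CPM (log axis) of the 6 mature arms in each of the 3 libraries, with 95% Poisson intervals; the open triangle marks the limit of 3 counts for the arm with 0 counts. The 5p arms of hsa-mir-182 and hsa-mir-183 lie between 6641 and 9414 in all libraries, that of hsa-mir-96 between 1070 and 1675, and the 3p arms far below.

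The question of unequal output was addressed within each library, where no scaling enters. The share of cluster counts from hsa-mir-182 was 50.1% in the control (95% Wilson interval 49.5% to 50.7%), 50.1% in miR-1 cells (49.6% to 50.7%) and 47.4% in miR-122 cells (46.9% to 47.9%). hsa-mir-183 gave 42.7% (42.1% to 43.3%), 43.6% (43.0% to 44.2%) and 44.2% (43.7% to 44.7%). hsa-mir-96 gave 7.22% (6.91% to 7.54%), 6.28% (6.01% to 6.56%) and 8.42% (8.14% to 8.70%). The shares of hsa-mir-96 differed beyond counting error between all 3 libraries, with the miR-122 library highest and the miR-1 library lowest, whereas the share of hsa-mir-182 had overlapping intervals in the control and miR-1 libraries and was lower in miR-122 cells.

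**Figure D2:**
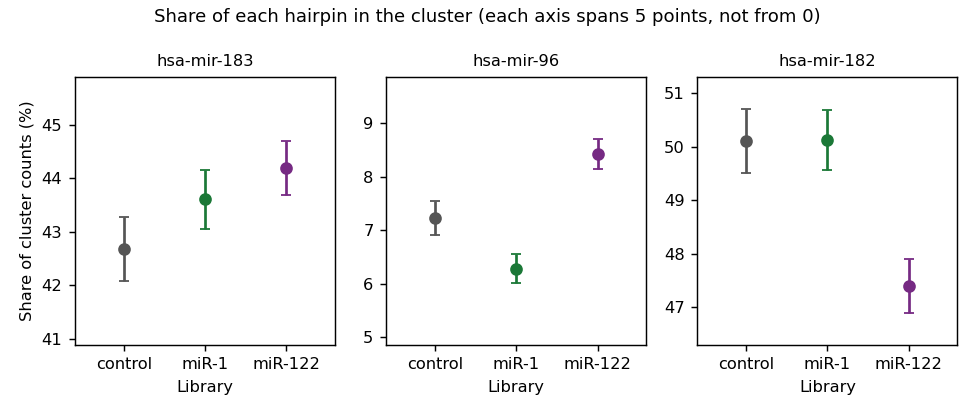
Share of the counts of the cluster (percent, both arms summed) that came from hsa-mir-183, hsa-mir-96 and hsa-mir-182 in each library, with 95% Wilson intervals; each vertical axis spans 5 percentage points and does not start at 0. The share of hsa-mir-96 is 7.22% in the control, 6.28% in miR-1 cells and 8.42% in miR-122 cells, and these intervals do not overlap.

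Expressed as ratios, hsa-mir-182 had 6.94 times the counts of hsa-mir-96 in the control (95% exact interval 6.61 to 7.28), 7.98 times in miR-1 cells (7.61 to 8.37) and 5.63 times in miR-122 cells (5.42 to 5.85). hsa-mir-183 had 5.91, 6.94 and 5.25 times the counts of hsa-mir-96. The outer hairpins were far closer to each other: hsa-mir-182 had 1.17 times the counts of hsa-mir-183 in the control (1.14 to 1.20), 1.15 times in miR-1 cells (1.12 to 1.18) and 1.07 times in miR-122 cells (1.05 to 1.10). The hairpins with 135 bases between them differed nearly as much as those 4199 bases apart, and the pair 4412 bases apart differed least. Whether distance on the transcript bears on these ratios, which are ratios of reads, was not tested.

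**Figure D3:**
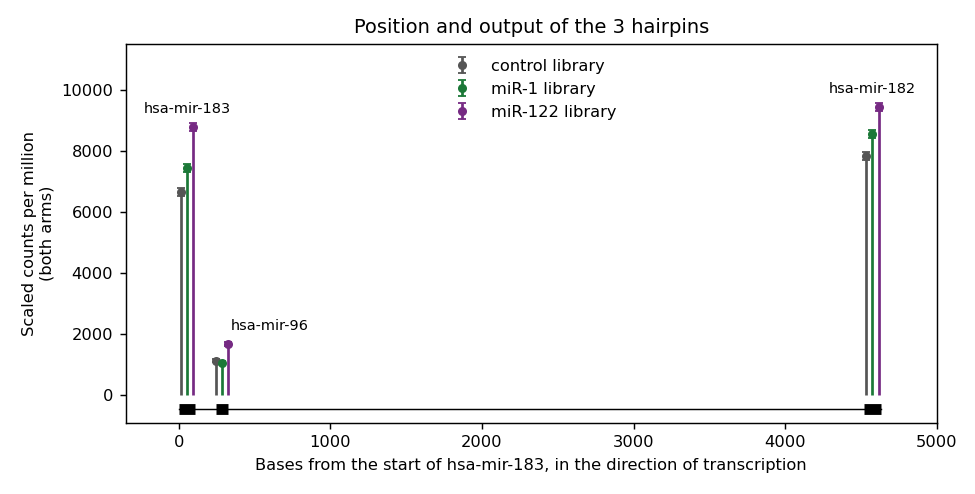
Map of the 3 hairpins (black blocks, to scale) by distance in bases from the start of hsa-mir-183 in the direction of transcription, with the scaled CPM of both arms as lines and points for each library (95% Poisson intervals; the libraries are offset sideways by 40 bases for legibility). The outer hairpins reach 6661 to 9433 scaled CPM and hsa-mir-96 stays between 1073 and 1675.

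To set this inequality beside that of other loci, hairpins on the same strand with at most 10 kb between neighbours were grouped from the RefSeq annotation, and hairpins whose mature strands are listed for more than 1 hairpin were left out. Such a group need not be transcribed as a unit. The ratio of highest to lowest hairpin of the miR-183 cluster was larger than that of 21 of 39 other groups in control cells, 24 of 47 in miR-1 cells and 18 of 40 in miR-122 cells. It was thus near the middle of this order in each, but the order mixes groups with different numbers of hairpins. In some groups the lowest hairpin had 1 count. Among groups with 3 hairpins counted, the ratio exceeded that of 4 of 6, 3 of 6 and 1 of 4 others. These groups are too few to give it a steady place. Among groups with at least 1000 counts, a limit added after the data were seen, it exceeded 7 of 15, 8 of 18 and 5 of 16.

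In the control order the next smaller ratio was that of mir-212/mir-132 (5.80) and the next larger that of mir-374b/mir-421 (8.63). The miR-106b-25 cluster, a relative of miR-17-92, also has 3 hairpins and had a ratio of 5.14, from 48413 counts of hsa-mir-25 to 9415 of hsa-mir-106b. In the miR-17-92 cluster the 4 hairpins that could be counted apart from their copies ran from 65623 counts of hsa-mir-20a to 1669 of hsa-mir-19a, a ratio of 39.3. The ratio of mir-27b to mir-23b was 27.2. These are ratios of read counts of different sequences, and how far ligation contributes to them was not tested.

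**Figure D4:**
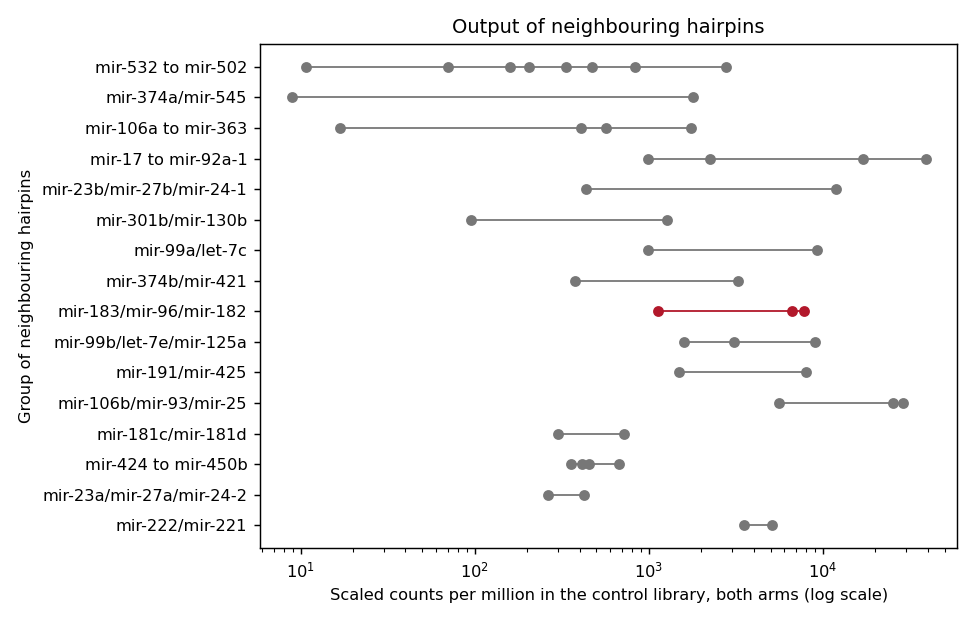
Scaled CPM in control cells (log axis) of the hairpins of each group of neighbours with at least 1000 counts, each point a hairpin and each row a group, ordered by the ratio of highest to lowest. The miR-183 cluster, in red, has 7 groups below it and 8 above it in this order, and its pair of high hairpins stands apart from hsa-mir-96.

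The choice of arm was nearly complete in each hairpin. The 3p arm made up 0.294% of the counts of hsa-mir-183 in the control (95% Wilson interval 0.209% to 0.412%), 0.328% in miR-1 cells (0.245% to 0.440%) and 0.362% in miR-122 cells (0.282% to 0.466%), and these intervals overlap. For hsa-mir-182 it was 0.349% in the control (0.262% to 0.465%), 0.175% in miR-1 cells (0.120% to 0.255%) and 0.197% in miR-122 cells (0.142% to 0.274%). The intervals of the control and miR-1 libraries did not overlap, and those of the control and miR-122 libraries did. For hsa-mir-96 the 3p arm made up 0.105% in the control (0.0289% to 0.383%) and 0.259% in miR-1 cells (0.111% to 0.605%).

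Arm choice was compared with that of 71 to 72 other hairpins that had both arms listed, no arm shared with another hairpin and at least 1000 counts. Their less abundant arm had a median share of 1.38% in the control, 1.59% in miR-1 cells and 1.58% in miR-122 cells. In the control, 19 of 71 had a smaller share than hsa-mir-183, 20 than hsa-mir-182 and 11 than hsa-mir-96. The 3 hairpins of the cluster therefore had a smaller share of the less abundant arm than the median hairpin.

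The levels were then compared between lines. Relative to control, miR-182-5p had a log2 ratio of 0.13 in miR-1 cells (95% exact interval 0.10 to 0.17) and miR-183-5p of 0.16 (0.12 to 0.20). miR-96-5p had -0.07 (-0.17 to 0.02), an interval that includes no difference. The spread of log2 ratios over the 514 miRNAs, taken as their scaled median absolute deviation, was 0.31, so all 3 guides lay well within it. This spread, like those given below, covers miRNAs averaging as few as 10 counts, far fewer than the guides. The spread at the abundance of the guides was not computed.

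In the miR-122 library the guides had positive ratios to control and these differed in size. The log2 ratio was 0.27 for miR-182-5p (0.24 to 0.31), 0.40 for miR-183-5p (0.37 to 0.43) and 0.57 for miR-96-5p (0.49 to 0.66). The last is a 1.49-fold difference, just under the limit of 1.5-fold used here to count miRNAs as apart. These intervals do not overlap, yet the spread over all miRNAs in this comparison was 0.52, and 87.7% of the 514 had a smaller ratio than miR-96-5p.

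Between the miR-1 and miR-122 libraries, miR-96-5p had a log2 ratio of -0.65 (-0.73 to -0.56), lower in miR-1 cells and past 1.5-fold. miR-183-5p had -0.24 (-0.27 to -0.21) and miR-182-5p -0.14 (-0.17 to -0.11). Of the 514 miRNAs, 7.0% had a smaller ratio than miR-96-5p in this comparison, for which the spread was 0.42.

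Of the 5 arms with enough counts, 1 was at least 1.5-fold apart in each comparison. In the miR-1 library against control, where 16.7% of the 514 miRNAs passed this limit, it was miR-182-3p with a log2 ratio of -0.85 (-1.60 to -0.15), from 46 to 27 counts. In the miR-122 library against control, where 27% passed, it was miR-183-3p with 0.69 (0.07 to 1.36), from 33 to 60 counts. In the miR-1 library against the miR-122 library, where 23.2% passed, it was miR-96-5p. The count of 1 in 5 was thus near the share of all miRNAs in each comparison, and the first and second of these rest on few counts. Those shares include many miRNAs with low counts. Among miRNAs averaging at least 100 counts, 260 of them outside the cluster, 14, 45 and 34 passed in the same order. This is a smaller part than of all 514. miR-96-3p had a ratio of 2.34 between the miR-1 and control libraries with an exact interval of 0.384 to 24.6, and no ratio is given against 0 counts.

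The median log2 ratio of the 5 arms was 0.13 in miR-1 cells and 0.40 in miR-122 cells, both against control, beside -0.0021 and -0.037 for all 514 miRNAs. These comparisons share the control library. Summed over all 6 arms, the cluster had a log2 ratio of 0.13 (0.11 to 0.15) and 0.35 (0.33 to 0.37). When the libraries were scaled by all miRNA counts with the induced miRNAs included, as in the deposited RPM values, these sums turned to -0.60 and -0.15, and the median of all miRNAs moved by the same amount, to -0.73 and -0.53. A change of scaling adds a constant to every log2 ratio, so it cannot alter the place of the cluster among the miRNAs.

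**Figure D5:**
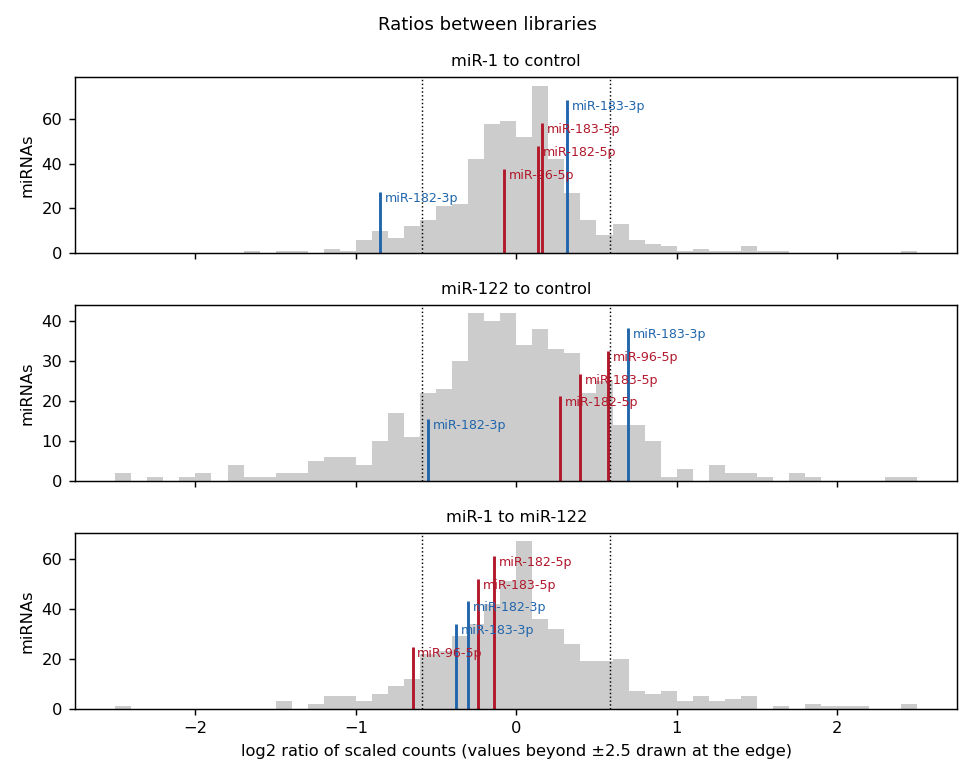
Distribution of the log2 ratio of scaled counts over 514 endogenous miRNAs (grey bars, number of miRNAs) in each comparison of libraries, with the 5p arms of the cluster in red, its 3p arms in blue and the 1.5-fold limits dotted. The guides lie inside both limits in the comparisons with control, and miR-96-5p lies past the lower limit in miR-1 to miR-122 (log2 ratio -0.65).

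Because the hairpins share a transcript, the change of their ratio between libraries was compared with that of 52 other pairs from the groups of neighbouring hairpins. Each hairpin averaged at least 100 counts. Every pair within a group was taken, so the pairs are not independent and large groups weigh more. The largest part comes from the group of mir-532 to mir-502, without hsa-mir-500b, which averaged fewer than 100 counts. The ratio of hsa-mir-182 to hsa-mir-183 moved little. Its log2 change was -0.03 in miR-1 cells (-0.08 to 0.02) and -0.13 in miR-122 cells (-0.18 to -0.08), both against control, and 7 and 12 of the 52 pairs moved less. The ratio of hsa-mir-182 to hsa-mir-96 changed by 0.20 (0.10 to 0.30) and -0.30 (-0.39 to -0.21), and 32 and 26 of the pairs moved less. From miR-122 cells to miR-1 cells it changed by 0.50 (0.42 to 0.59), which is 1.42-fold, and 45 of 52 pairs moved less; their median absolute change was 0.23 and their largest 1.13.

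Among the 2275 mature miRNAs of the table with a RefSeq sequence, the only other with counts and the seed of a guide of this cluster was miR-1271-5p, from a gene on another chromosome, which carries the seed of miR-96-5p.
hsa-miR-1271-5p: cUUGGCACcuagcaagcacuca
miR-1271-5p had 315, 396 and 410 counts in control, miR-1 and miR-122 cells, respectively. miR-96-5p therefore supplied 85.8% of the counts with this seed in the control (95% Wilson interval 84.3% to 87.2%), 82.9% in miR-1 cells (81.4% to 84.4%) and 88.5% in miR-122 cells (87.4% to 89.5%). With miR-1271-5p included, the seed had 2214, 2321 and 3565 counts, still well under the 13145, 15379 and 17730 of miR-182-5p. The log2 ratio of miR-1271-5p to control was 0.24 (0.02 to 0.46) in miR-1 cells and 0.22 (0.01 to 0.44) in miR-122 cells.

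The miRNAs whose pair of ratios to control was most like that of miR-182-5p, by Euclidean distance over these 2 log2 ratios from 3 libraries, were miR-10a-5p (0.019), miR-221-3p (0.023) and miR-103a-3p (0.036). Of 260 candidates averaging at least 100 counts, 16 lay within 0.1 and the median distance was 0.465. miR-183-5p was at 0.130, with 26 of the candidates closer, and miR-96-5p at 0.365, with 99 closer.

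Other miRNAs of sensory organs were described from a list of 9. Of these, 5 were endogenous miRNAs averaging at least 10 counts, which leaves out miR-124-3p because it was listed only at a synthetic hairpin, and their median log2 ratio to control was -0.17 in miR-1 cells and -0.25 in miR-122 cells. None of the 5 was 1.5-fold apart in the former, beside 16.7% of all 514 miRNAs, and 1 in the latter, beside 27%. This was miR-194-5p, which is also abundant in gut and kidney (log2 ratio -0.75, from 1040 to 692 counts). miR-9-5p, a miRNA of the developing nervous system, had 8030, 8410 and 8518 counts. miR-204-5p, enriched in the pigment epithelium of the eye, had 175, 145 and 201. miR-211-5p had 0 counts in all libraries and miR-124-3p had 18, 15 and 12.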

How the data were processed

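Small RNA of 3 libraries, 1 per group, was sequenced. With miRDeep2 the authors removed adapters, kept reads of at least 18 nt, merged identical ones and counted them on the human hairpins of miRBase release 21 plus their synthetic hairpins; the labels name hg19. The deposited values were estimated counts, whole for the 6 arms of the cluster and fractional for some other miRNAs named (printed rounded), and RPM values by the authors, that is, reads per 1000000 with the induced miRNAs in the total. A pooled total in the table was not used.

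Endogenous counts were summed per mature miRNA; miRNAs whose counts averaged at least 10 (514 of 1351) were scaled by TMM (edgeR 4.0.16, R 4.3.3). Log2 ratios used a pseudocount of 0.5 counts. Intervals (95%) are Wilson for shares, Poisson for levels and exact conditional (Clopper-Pearson, scipy 1.17.1) for ratios. Those for the change of a ratio use the normal approximation to Poisson counts. The reads carried no molecular identifiers, so intervals cover counting error only. With 1 library per group no test was possible. Counts were described as apart at 1.5-fold. The ratio step was tested on simulated Poisson counts without further spread between libraries. The simulated folds were larger than those of the guides, so this says nothing about differences as small as theirs. RefSeq gave sequences for 2275 of 2590 mature miRNAs, all 6 arms included, and neighbours for 1710 of 1873 endogenous hairpins. Coordinates are from GENCODE 44 lifted to GRCh37. The members and lists were chosen with earlier results of these data known. Named were the 6 arms, miRNAs sharing a seed, the nearest miRNAs in pattern and in control order, listed neighbouring groups and fixed lists. DESeq2 1.42.0 size factors and other filters, scalings, pseudocounts and fold limits were alternatives.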

Additional observations from a re-analysis of the deposited data

How the results depend on the processing

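For 33 results, 111 other settings, and 3 more chosen after the data were seen, were computed; 90 stayed within 1.5 times (counts of miRNAs) or the 95% counting interval (other values) and 24 moved, among them none of the hairpin shares, arm shares or hairpin ratios. For these shares the RPM values (rounding aside) and, in the control, the smallest library, down-sampling could not change the value, so those settings say nothing about stability. Leaving out the 3p arms, at most 0.362% of the counts of a hairpin, could hardly change a hairpin share. Nor could a pseudocount of 5 move the summed cluster, with 26328 counts or more. The 90 include these settings. With neighbours limited to 3 kb the cluster came apart, so no value exists. Below, values are listed for miR-1 over control, then miR-122 over control, then miR-1 over miR-122. The log2 ratio of the summed cluster was 0.093, 0.26 and -0.17 when scaled by total endogenous counts, and -0.60, -0.15 and -0.45 by all miRNA counts, which include the induced miRNAs. With scaling restricted to mean counts of 100 or more it was 0.17 for miR-1 over control, and with scaling without a filter it was -0.20 for miR-1 over miR-122. The number of miRNAs at least 1.5-fold apart, 86, 139 and 119, became 17, 50 and 44 at 2-fold, 606, 674 and 672 without a filter, and 14, 45 and 34 at a mean count of at least 100; a pseudocount of 5 gave 51 for miR-1 over control. The number of cluster arms apart, 1 in each, became 0 in each at 2-fold, 3 for miR-1 over control and 2 for miR-1 over miR-122 when scaled by all miRNA counts, and 2 for miR-122 over control by total endogenous counts. Low counts limit the 3p arms.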

Other observations

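A fixed list of 8 epithelial miRNAs, which does not cover all miRNAs of epithelia, was also counted. Of these, 4 had a mean count of at least 10, and their median log2 ratio to control was 0.19 in miR-1 cells and 0.25 in miR-122 cells. miR-375, a miRNA of endocrine and secretory epithelia, had 505, 349 and 801 counts in control, miR-1 and miR-122 cells, respectively. It was thus lower in the miR-1 library (log2 ratio to control -0.63) and had 0.51 in the miR-122 library. miR-200c-3p had 250, 305 and 271 counts, while miR-141-3p, its neighbour in the genome, had 7, 10 and 2. miR-205-5p had 0, 1 and 5.

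Markers of other cell types were counted as well. Of 7 blood cell miRNAs, 1 had a mean count of at least 10, miR-486-5p with 434, 439 and 592 counts, and miR-223-3p had 0 in all libraries; the summed level of the list was 254 to 329 scaled CPM. Of 5 endothelial and mesenchymal miRNAs, 3 had a mean count of at least 10 and miR-214-3p had 0 in all libraries. The summed level of this list was 3231, 3615 and 4073, nearly all of it miR-126-3p (5319, 6314 and 7533 counts). It was highest in the miR-122 library, as was the cluster. The same held for the epithelial list (471, 392 and 590 scaled CPM) and the blood list (272, 254 and 329). Most of the epithelial sum was miR-375 (299, 194 and 425), and most of the blood sum was miR-486-5p (257, 244 and 314). In the epithelial list miR-200c-3p (148, 170 and 144), miR-200a-3p, miR-141-3p and miR-429 were instead lowest in the miR-122 library. There miR-205-5p was highest, while miR-200b-3p and miR-203a-3p lay between their values in the other libraries. The sensory organ list, summed over all 9 with miR-124-3p included, was lowest in the miR-122 library (8689, 8199 and 7669). The part of any of these lists in the levels of the cluster was not tested.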
